A study of Mus musculus with 32 samples.

Results

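The 7 long noncoding RNAs described here are *Malat1*, *Neat1*, *Meg3*, *Rian*, *Mirg*, *Miat* and *Snhg11*, read by symbol as rows of the gene count tables of mouse striatum. They are 7 of 23420 genes counted, and all 7 passed the filter on low counts that 15589 genes passed. They were chosen by measured values of these same mice, their contrast between genotypes and their covariation across mice, so both are given as a description, with no test.

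RNA came from 8 B6 (C57BL/6J) mice and 8 B6.D2 congenic mice (Line 4a), which carry 1 copy of a DBA/2J-derived segment of chromosome 11 on the C57BL/6J background and are the heterozygous littermates of the B6 mice. All 16 were drug-naive, of both sexes and about 50 days old, and the punches of both hemispheres of the striatum were pooled per mouse. Line 4a is a single congenic line, and a single D2-derived base elsewhere in the genome is described by the study as shared by both genotypes. Mice 1 to 4 of each genotype were sequenced on lanes 5 and 6 and mice 5 to 8 on lanes 7 and 8. Libraries were made from polyadenylated RNA.

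*Malat1* and *Neat1* are neighbouring genes whose RNAs stay in the nucleus. *Malat1* gathers in nuclear speckles, which store splicing factors, and ends in a triple helix in place of an ordinary poly(A) tail. *Neat1* is the scaffold of paraspeckles, and its long form ends in the same way. *Meg3*, *Rian* and *Mirg* lie in a row in the Dlk1-Dio3 imprinted region and are expressed from the maternal chromosome; *Rian* is a host of small nucleolar RNAs and *Mirg* of a large microRNA cluster. *Miat*, also called Gomafu, is a neuronal RNA kept in the nucleus, and *Snhg11* is a brain-enriched host gene of small nucleolar RNAs. A library of polyadenylated RNA need not hold every form of such RNAs, and the levels below are those of the selected RNA. In bulk tissue, fewer cells of a type and less RNA per cell cannot be told apart.

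Between 19032826 and 33748353 reads were counted on genes per mouse. In 2 libraries, B6 mouse 8 and congenic mouse 1, 14.01% and 14.06% of the uniquely aligned reads fell on no gene, against 18.3% to 19.99% in the other 14. Congenic mouse 1 also had 27.3% of its reads aligned to several places, against 19.5% to 21.4% in the other 14. Results are therefore given with and without these 2 libraries. Markers of the tissue were high in all mice: the summed level of 12 markers of striatal projection neurons lay between 6329 and 9315 CPM (reads of a gene scaled to a library of fixed size), and none of these markers was at 0 in all mice. Of the marker lists, that of cortical glutamatergic neurons had 12 of 12 genes lower in congenic mice and 9 at an unadjusted p under 0.05, beside 10% of all genes, with a median log2 difference of -0.50; 0 of 12 passed a false discovery rate (FDR) of 5% in edgeR's quasi-likelihood test, and 1, *Neurod6*, in DESeq2 and in edgeR's likelihood ratio test. The part of this difference in the results below was not tested.

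Per kb of annotated exon, *Snhg11* and *Meg3* were the most abundant of the 7. In B6 mice *Snhg11* was at 340 ± 88.2 RPKM (CPM divided by the kb of exon; mean ± SD, n = 8) and *Meg3* at 299 ± 74.6. *Malat1* followed at 124 ± 31.4 and *Rian* at 116 ± 12.9. In each of these 2 neighbouring pairs the ranges over B6 mice overlapped. Within every mouse of both genotypes, though, *Snhg11* was above *Meg3* on this scale, whereas the order of *Malat1* and *Rian* changed between B6 mice. *Miat* was at 40.1 ± 10.4, *Mirg* at 7.93 ± 1.42 and *Neat1* at 6.90 ± 2.95, and the order of the last 2 also changed between B6 mice. The exon length used for *Neat1* was 20771 bases, and its place in the order depends on that length, since the library need not hold its long form. Before division by length, the B6 mean was 143 CPM for *Neat1* and 25.2 CPM for *Mirg*. In congenic mice the order was *Snhg11* (388 ± 23.3), *Meg3* (329 ± 54.8), *Rian* (122 ± 4.92), *Malat1* (102 ± 13.96), *Miat* (36.6 ± 9.41), *Neat1* (10.7 ± 2.42) and *Mirg* (9.13 ± 1.35). Together the 7 took 0.469% to 1.23% of the reads on genes in B6 mice and 0.867% to 1.25% in congenic mice. The lowest share of each genotype was that of B6 mouse 8 and of congenic mouse 1, and the other 14 lay between 1.08% and 1.25%.

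**Figure D1:**
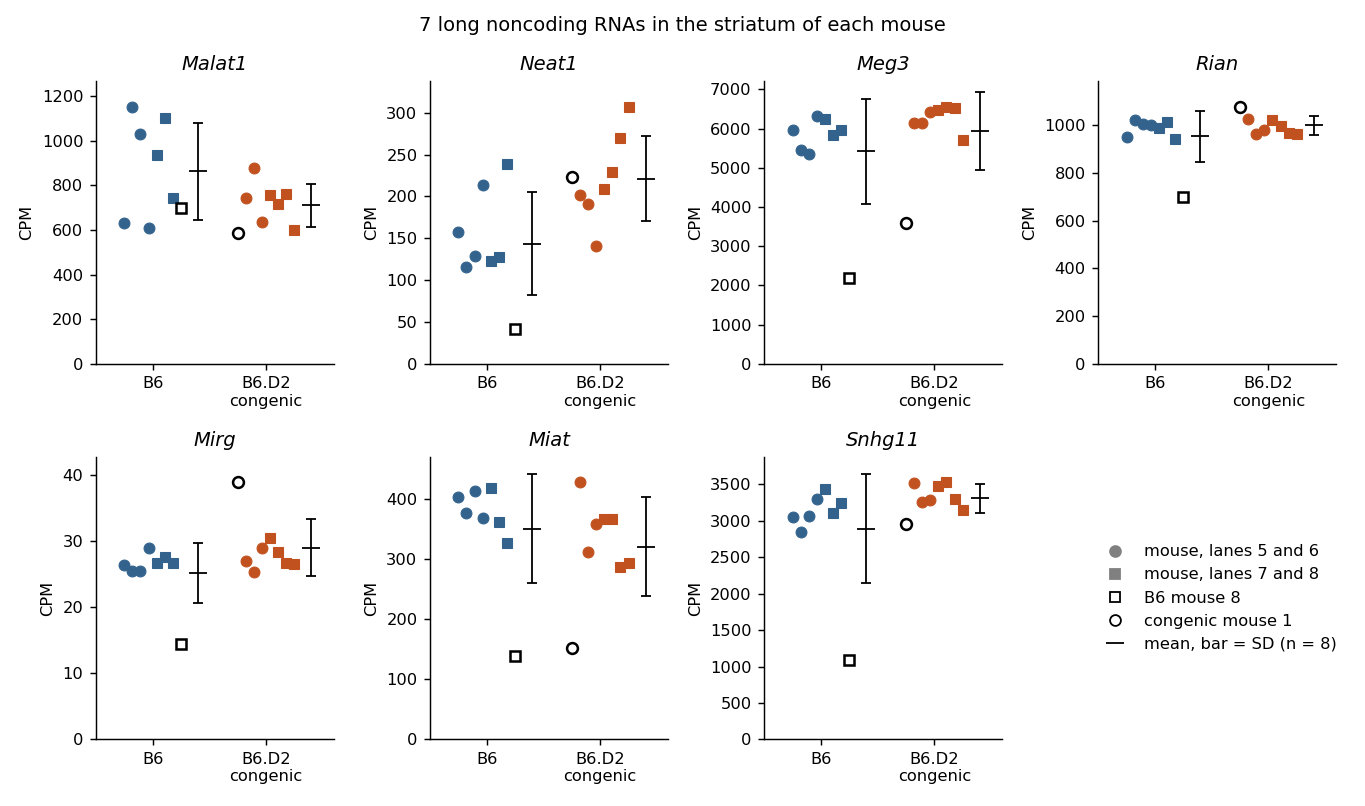
Level of each of the 7 long noncoding RNAs in every mouse, in CPM on an axis that starts at 0, by genotype. Circles are mice of lanes 5 and 6 and squares mice of lanes 7 and 8; open symbols are B6 mouse 8 and congenic mouse 1; bars are the mean ± SD of 8 mice. B6 mouse 8 is the lowest point of its genotype in every panel but that of Malat1.

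*Malat1* lies on the minus strand of chromosome 19 (GRCm38.p6, chr19:5795690-5802672). B6 mice spanned 608 to 1154 CPM (median 839) and congenic mice 587 to 877 (median 732). The groups overlapped, with 4 of 8 B6 mice (2, 3, 5 and 6) above every congenic mouse and 2 of 8 congenic mice (1 and 8) below every B6 mouse. The fitted log2 difference, congenic minus B6, was -0.28 with a standard error of 0.13. It was -0.29 without the 2 libraries that stood apart, -0.27 in the lane 5 and 6 mice and -0.30 in the lane 7 and 8 mice. *Malat1* is the member in which B6 mice spread most within the genotype once B6 mouse 8 is left out, apart from *Neat1*: the SD of its log2 level was 0.38 over those 7 mice, against 0.18 in 7 congenic mice. Reads were counted without strand, so reads of an opposite-strand RNA that is not annotated cannot be told apart from those of *Malat1*. Reads that also overlapped another counted annotation were counted for neither.

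*Neat1* lies on the same chromosome (chr19:5824708-5845480) and differed between genotypes in the other direction. B6 mice spanned 41.9 to 239 CPM (median 128) and congenic mice 141 to 307 (median 215). All 8 congenic mice were above the B6 median and 5 of 8 B6 mice were below every congenic mouse, while B6 mice 1, 4 and 7, at 157, 214 and 239, lay inside the congenic range. The log2 difference was 0.63 with a standard error of 0.24, a fitted ratio of 1.55. It was 0.49 (SE 0.17) without the 2 libraries, 0.30 in the lane 5 and 6 mice and 0.93 in the lane 7 and 8 mice, the set that holds B6 mouse 8. *Neat1* also varied most of the 7: its biological coefficient of variation, the spread between mice of a genotype beyond counting error, was 33.2%, higher than that of 98.0% of genes tested. The ratio of *Malat1* to *Neat1* counts ranged from 2.84 to 16.7 in B6 mice and from 1.96 to 4.59 in congenic mice. The 16.7 was that of B6 mouse 8, and the highest of the other 14 mice was 9.97.

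Of the 7, *Malat1* and *Neat1* were the 2 at an unadjusted p under 0.05, 1 lower and 1 higher in congenic mice, and 0 of 7 passed an FDR of 5% in edgeR's quasi-likelihood test or in any of 31 other settings, DESeq2 among them. *Malat1* was only just under 0.05, and the number of members under it changed with the setting. It was 1 with upper-quartile factors or a lane-pair term, 0 in the lane 5 and 6 mice, and 4 with the share of reads on no gene as a covariate. None of these settings fitted home cage. The study, whose edgeR model did, reported *Malat1* lower in congenic mice by a larger amount, at an FDR under 5%. Of all genes tested, 10% had an unadjusted p under 0.05, 4.86% with the congenic mice higher and 5.14% with them lower, and 0.00641% passed an FDR of 5%. That share is 1 gene, *Tnip1*, named here after its value was seen, with a log2 difference of 0.39 and an adjusted p of 0.00637 in edgeR's quasi-likelihood test. For none of the 7 were the values of the genotypes without overlap, which was so for 9 genes, 0.0577% of those tested. Since the 7 were chosen with this contrast known, nothing is read from these counts.

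In the promoter windows of RefSeq (GRCm38.p6), which hold 250 bases before and 50 after each start, 6 of the 7 genes had an entry. Windows were searched on both strands for 4 motifs. The TATA box core (TATAAA) was held by 13.6% of 32851 windows, the CCAAT box (CCAAT) by 37.4%, the GC box (GGGCGG) by 35.7% and the short form of the cAMP response element (TGACG) by 20.8%. For *Malat1* the TGACG motif was found 3 times, once in the sense orientation at positions -45 to -41 from the start and 2 times on the opposite strand. The 30 bases around the sense match (chr19:5802700-5802729, minus strand, motif in capitals) are shown with the matches of the *Meg3* window, since these are the members with more than 1 kind or copy of a motif. The *Meg3* window, chr12:109540746-109541045, holds TATAAA at -25 to -20, which overlaps an opposite-strand match, then TGACG at -57 to -53, which overlaps its own opposite-strand copy, and CCAAT at -100 to -96. The *Mirg* window holds CCAAT alone, the *Miat* window GGGCGG on the opposite strand alone, and those of *Rian* and *Snhg11* hold none of the 4.
Malat1 TGACG: gttccggtggagTGACGtgtccctttgcaa
Meg3 TATAAA (chr12:109540959-109540988, plus strand): tctgcgcctttaTATAAAccccacccagcc
Meg3 TGACG (chr12:109540927-109540956, plus strand): agcagaatgcgcTGACGtcaaagaccaccc
Meg3 CCAAT (chr12:109540884-109540913, plus strand): tcatttttccggCCAATcacttttagagaa

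The windows also differed in CG dinucleotides, of which the median promoter window holds 7. The *Miat* window held 25, more than in 81.6% of windows, and the *Snhg11* window 21, more than in 75.2%. The first *Meg3* window held 13, those of *Mirg* and *Malat1* 10 each, and that of *Rian* 0. A second *Meg3* start within the gene had 1. These are features of the reference sequence, and no methylation or binding was analysed here beside them.

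*Meg3* opens the maternally expressed RNAs of the Dlk1-Dio3 region on chromosome 12 (chr12:109540996-109571729, plus strand). B6 mice spanned 2185 to 6330 CPM (median 5895) and congenic mice 3592 to 6557 (median 6285). The lowest value of each genotype belonged to B6 mouse 8 and congenic mouse 1, and the other 7 of each lay between 5343 and 6330 and between 5708 and 6557. The log2 difference was 0.13 with a standard error of 0.17, and 0.09 (SE 0.05) without the 2 libraries. It was 0.01 without B6 mouse 8 alone and 0.21 without congenic mouse 1 alone. It was -0.05 in the lane 5 and 6 mice and 0.32 in the lane 7 and 8 mice. With the 2 libraries left out, the SD of the log2 level was 0.09 in B6 and 0.07 in congenic mice; with them it was 0.51 and 0.29.

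*Rian* lies downstream (chr12:109603945-109661716, plus strand) and was the steadiest of the 7, with a biological coefficient of variation of 9.73%. B6 mice spanned 701 to 1021 CPM (median 995) and congenic mice 964 to 1078 (median 990). B6 mouse 8 was low, and congenic mouse 1 held the highest of the 16 values. The log2 difference was 0.07 with a standard error of 0.07, -0.00 (SE 0.03) without the 2 libraries and 0.01 without B6 mouse 8 alone. In the lane 5 and 6 mice it was 0.03, against 0.11 in the lane 7 and 8 mice.

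*Mirg*, the host of the microRNA cluster (chr12:109734981-109749458, plus strand), ranged from 14.4 to 28.9 CPM in B6 mice (median 26.5) and from 25.3 to 38.9 in congenic mice (median 27.7). B6 mouse 8 was again the lowest and congenic mouse 1 the highest, and each stood off from the other 7 of its genotype. The log2 difference was 0.20 with a standard error of 0.12, 0.04 (SE 0.04) without both, 0.11 without B6 mouse 8 alone and 0.13 without congenic mouse 1 alone; within the lane pairs it was 0.18 and 0.24.

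The count ratios of the 3 RNAs of the region lay within narrow ranges in 14 mice, and those of the other 2 fell outside. Narrow ratios do not show that the levels moved together, since each RNA also varied little in the 14. The count ratio of *Meg3* to *Rian* was 3.11 in B6 mouse 8 and 3.33 in congenic mouse 1, against 5.31 to 6.75 in the other 14. The ratio of *Rian* to *Mirg* was 48.7 in B6 mouse 8 and 27.8 in congenic mouse 1, on opposite sides of the 33.6 to 40.1 of the other 14. In B6 mouse 8 *Meg3*, *Rian* and *Mirg* were at 36.6%, 70.0% and 54.1% of the median of the other 7 B6 mice. In congenic mouse 1 they were at 55.9%, 110% and 144% of the median of the other 7 congenic mice.

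The small RNA genes of the region have rows of their own in the tables. Of 72 listed by symbol, 62 had a row, 47 had at least 1 read and 8 passed the filter, with 8226 reads in all over 16 mice. Such reads come from longer polyadenylated RNA that covers the hairpin or the small nucleolar RNA, and they measure neither mature microRNA nor small nucleolar RNA. Reads that also overlapped an exon of the host were counted for neither. Rows inside the span of *Rian* held 218 reads in B6 mouse 8 and 249 in congenic mouse 1, against 228 to 419 in the other 14. Most of these were on *AF357359*, a small nucleolar RNA (chr12:109650709-109650738), with 180 to 375 reads per B6 mouse and 239 to 351 per congenic mouse. Rows inside the span of *Mirg* held 60 and 110 reads in the 2 libraries, against 74 to 162 in the other 14. Scaled to depth, the rows in the *Rian* span were at 7.14 and 7.81 CPM in the 2 libraries, below the 10.8 to 13.7 of the other 14, and those in the *Mirg* span at 1.96 and 3.45 CPM, below the 3.71 to 5.38 of the other 14.

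Among the microRNA rows, *Mir3072* in the *Mirg* span (chr12:109747878-109747960) had the most reads, between 22 and 66 per B6 mouse and between 44 and 72 per congenic mouse. Its log2 difference was 0.36 with a standard error of 0.16 and an adjusted p of 0.48 in edgeR's quasi-likelihood test, and 0.22 without the 2 libraries. *Mir1188* in the *Rian* span (chr12:109611822-109611941) had 2 reads in congenic mouse 1, where the congenic median was 17.5, and between 10 and 27 in B6 mice. The mature sequences of the rows with the most reads, from RefSeq, are given with the seed (bases 2 to 8) in capitals. No seed is shared among them, while *Mir3070a* and *Mir3070b* upstream of *Rian*, with 128 and 193 reads, share the seed of miR-3070-5p.
mmu-miR-3072-5p: aGGGACCCcgagggagggcagg
mmu-miR-3072-3p: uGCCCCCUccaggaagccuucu
mmu-miR-1188-5p: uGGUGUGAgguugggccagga
mmu-miR-409-3p: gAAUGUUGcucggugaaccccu
mmu-miR-541-5p: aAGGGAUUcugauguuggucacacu
mmu-miR-377-3p: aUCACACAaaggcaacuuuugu
mmu-miR-3070-5p: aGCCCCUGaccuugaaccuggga

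*Miat* lies on the minus strand of chromosome 5 (chr5:112213228-112228948). B6 mice spanned 139 to 418 CPM (median 372) and congenic mice 153 to 428 (median 336). The lowest value of each genotype was again that of B6 mouse 8 and of congenic mouse 1, and the remaining mice lay between 328 and 418 and between 287 and 428. The log2 difference was -0.13 with a standard error of 0.20, and -0.15 (SE 0.08) without the 2 libraries. It was -0.25 without B6 mouse 8 alone and -0.03 without congenic mouse 1 alone. Among the mice of lanes 5 and 6, which include congenic mouse 1, it was -0.32, and in the lane 7 and 8 mice, which include B6 mouse 8, it was 0.07.

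*Snhg11* lies on the plus strand of chromosome 2 (chr2:158375713-158386474). B6 mice spanned 1088 to 3437 CPM (median 3088) and congenic mice 2957 to 3526 (median 3289). B6 mouse 8 was at 35.0% of the median of the other 7 B6 mice, which lay between 2847 and 3437. Congenic mouse 1 was the lowest of its genotype, at 89.7% of the median of the other 7. The log2 difference was 0.19 with a standard error of 0.16, 0.09 (SE 0.04) without the 2 libraries and 0.07 without B6 mouse 8 alone, and it was 0.09 and 0.30 in the 2 lane pairs.

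**Figure D2:**
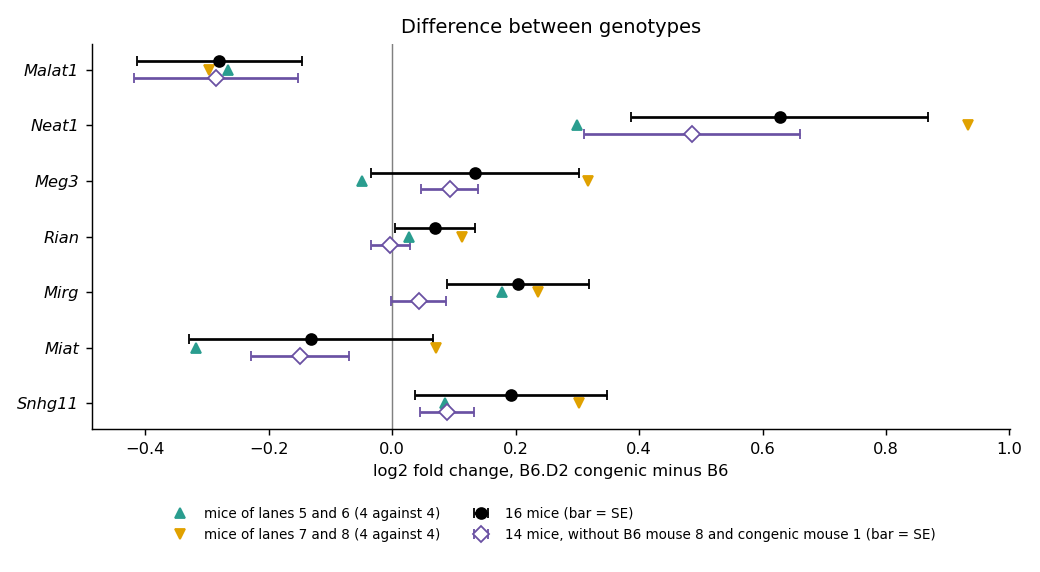
Log2 fold change of the 7 long noncoding RNAs, congenic minus B6, with the standard error of the fit, for all 16 mice, for 14 mice and within each lane pair. Malat1 is below 0 and Neat1 above 0 in all 4, while Meg3 and Miat lie on opposite sides of 0 in the lane pairs.

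The deviation of each mouse from its genotype mean shows in which mice the 7 were low or high together. B6 mouse 8 was the lowest of its 8 mice for 6 of the 7, all but *Malat1*, against 26.6% of all genes tested. Relative to the median of the other B6 mice it was at 32.6% for *Neat1*, 36.6% for *Meg3*, 36.9% for *Miat* and 35.0% for *Snhg11*, with *Mirg* at 54.1%, *Rian* at 70.0% and *Malat1* at 74.8%. Congenic mouse 1 was the lowest of its 8 mice for 4 of the 7 (*Malat1*, *Meg3*, *Miat* and *Snhg11*) and the highest for 2 (*Rian* and *Mirg*), against 36.5% and 37.3% of all genes. Its *Miat* was at 42.5% and its *Meg3* at 55.9% of the median of the other congenic mice, and its *Neat1* at 107%. The libraries thus shared a low *Meg3* and a low *Miat*, and differed in *Neat1*, *Snhg11*, *Rian* and *Mirg*. *Malat1* was below the median of the others in both, at 74.8% in B6 mouse 8 and 78.8% in congenic mouse 1. In B6 mouse 8 it lay within the range of the other B6 mice.

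**Figure D3:**
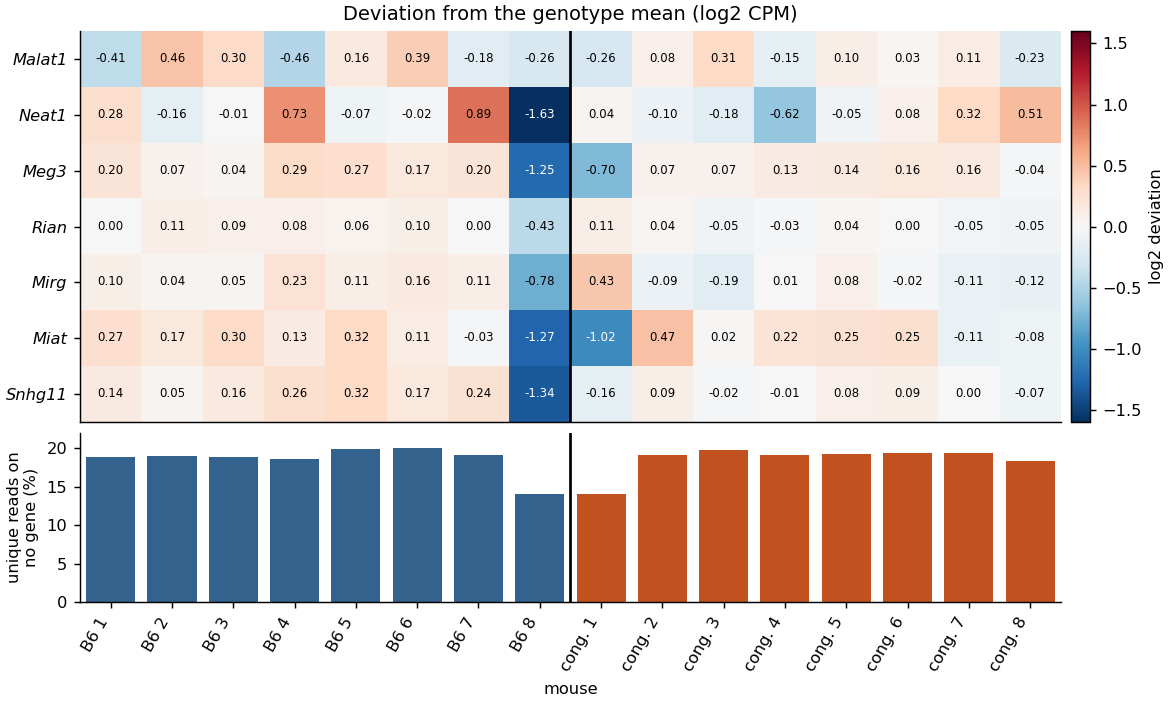
Log2 CPM of each of the 7 long noncoding RNAs in each mouse minus its genotype mean (upper panel, blue lower, red higher) above the share of uniquely aligned reads that fell on no gene, in percent (lower panel, bars start at 0). B6 mouse 8 and congenic mouse 1 have the shortest bars, at 14.01% and 14.06%.

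Over all 16 mice, after the genotype means were subtracted, the median correlation of log2 levels over the 21 pairs of members was r = 0.65, with 13 pairs above 0.5 and 2 below 0. Spearman's rho, which gives less weight to single far points, had a median of 0.35 with 5 pairs above 0.5. Without B6 mouse 8 and congenic mouse 1 the median r was 0.15, with 4 pairs above 0.5 and 7 below 0. The mice of lanes 7 and 8, with B6 mouse 8, had a median r of 0.85 and those of lanes 5 and 6, with congenic mouse 1, of -0.16. The points of every pair are the same libraries and so share their depth and their share of reads on genes; no p is given.

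Single pairs behaved differently once the 2 libraries were left out. *Meg3* and *Miat* had r = 0.92 (rho = 0.38) over 16 mice and r = 0.08 over 14. *Rian* and *Mirg*, neighbours on chromosome 12, had r = 0.92 (rho = 0.76) and then 0.35. *Meg3* and *Snhg11*, on different chromosomes, had r = 0.92 (rho = 0.85) and kept r = 0.73 (rho = 0.78) over 14. *Meg3* and *Mirg* had r = 0.52 over 16 mice and 0.62 over 14. *Meg3* and *Rian* had r = 0.68 (rho = 0.18) over 16 mice and -0.09 (rho = -0.01) over 14. *Malat1* and *Neat1*, neighbours on chromosome 19, had r = -0.14 (rho = -0.42) over 16 mice and -0.58 (rho = -0.65) over 14, and it was 0.17 in the lane 7 and 8 mice. *Neat1* and *Miat* had r = 0.46 over 16 and -0.55 over 14.

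**Figure D4:**
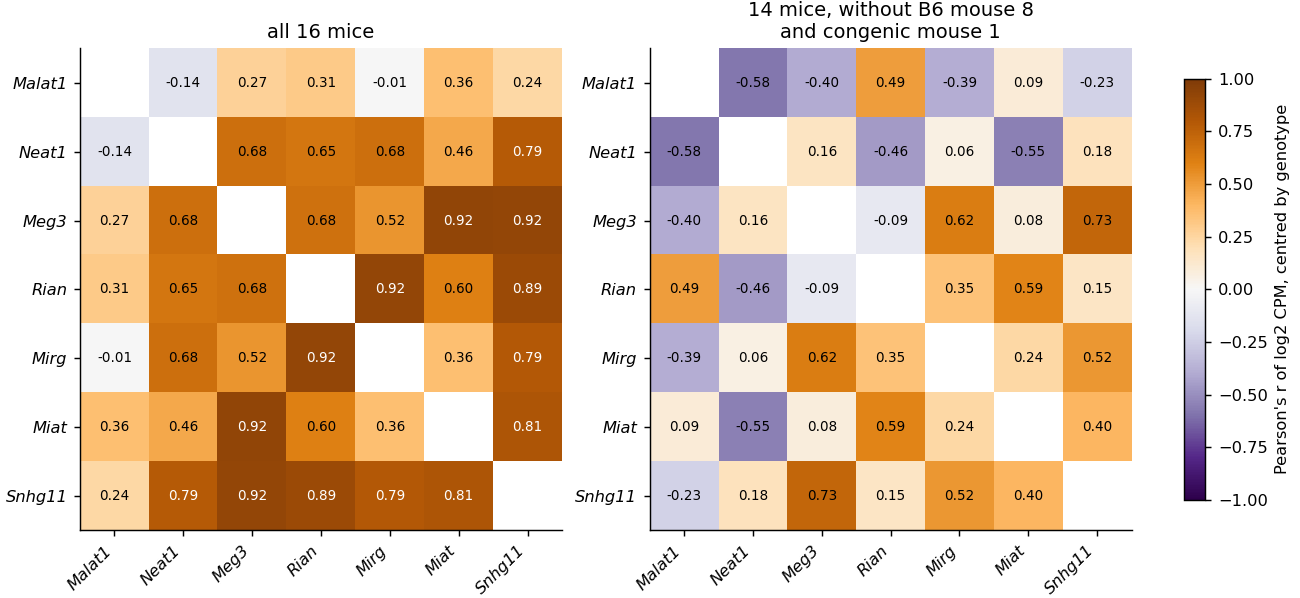
Pearson's r between the 7 long noncoding RNAs across mice, from log2 CPM with genotype means subtracted, over all 16 mice (left) and over 14 (right). The r of Meg3 with Miat goes from 0.92 to 0.08 and that of Meg3 with Snhg11 from 0.92 to 0.73.

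The share of uniquely aligned reads on no gene moved with some of the 7 more than with others. Its r was 0.94 with *Meg3*, 0.92 with *Miat* and 0.76 with *Snhg11* over 16 mice, and 0.49 with *Rian*, 0.48 with *Malat1*, 0.46 with *Neat1* and 0.26 with *Mirg*. Without the 2 libraries these were 0.36, 0.08, 0.31, 0.13, 0.60, -0.46 and -0.03. The share with several alignments had r = 0.74 with *Malat1* and 0.56 with *Rian* over 14 mice, against -0.03 and 0.40 over 16. The cortical marker list, as its mean log2 CPM, had r = 0.92 (rho = 0.86) with *Miat* and 0.67 with *Rian* over 14 mice, against 0.25 and 0.17 over 16. Within the lane pairs, where 1 of the 2 libraries is in each, its r with *Miat* was 0.38 and 0.09. Its r with *Neat1* was -0.38 over 16 mice and -0.58 over 14, and with *Malat1* 0.29 and 0.33. The part of these in the differences between genotypes was not tested.

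The read shares themselves were compared between genotypes with exact two-sided permutation tests over mice, whose smallest possible p here is 0.000155. Reads on no gene made up 18.5% ± 1.89 (SD, n = 8) of uniquely aligned reads in B6 mice and 18.5% ± 1.86 in congenic mice (exact permutation p = 0.969). Reads with several alignments made up 20.4% ± 0.651 in B6 and 21.6% ± 2.32 in congenic mice (exact permutation p = 0.0839, 0.252 after Benjamini-Hochberg adjustment over 3 shares). Without the 2 libraries that difference was 0.266 percentage points, with 7 mice a group (exact permutation p = 0.313). Ambiguous reads made up 1.09% ± 0.0313 and 1.12% ± 0.143 (exact permutation p = 0.899). None of the 3 shares differed between genotypes beyond the spread between mice.

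Of the genes tested, those whose centred levels were most like each member over 16 mice were named by the size of r alone. For *Meg3* they were *Col7a1* (r = 0.99), *Fam193b* (0.99) and *Akap8l* (0.98), for *Snhg11* *Luc7l3* (0.98), *Sycp2* (0.98) and *Sfrs18* (0.98), and for *Miat* *L3mbtl1* (0.98), *4933427D14Rik* (0.96) and *AF357359* (0.95), the small nucleolar RNA row in the *Rian* span. For *Rian* they were *4933439C10Rik* (0.95), *A930011O12Rik* (0.95) and *Zranb2* (0.94), for *Mirg* *Glt8d1* (0.97), *Pabpn1* (0.97) and *2810405F15Rik* (0.96), for *Neat1* *1700029J07Rik* (0.94), *B230206H07Rik* (0.92) and *Syne4* (0.92), and for *Malat1* *Cdadc1* (0.85), *Alg13* (0.84) and *Tmem170b* (0.82).

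Over the 14 mice other genes took most of these places. They were *Pkd1* (0.91), *Gys1* (0.89) and *Klhl18* (0.87) for *Meg3*, *Gm14872*, *Ccdc134* and *Tbc1d7* for *Snhg11* (0.90, 0.90 and 0.87), and *Dgkz*, *Emx1* and *Stx1a* for *Miat* (0.96, 0.95 and 0.94). *Emx1* is one of the listed cortical markers. For *Malat1* they were *Grin2b*, an NMDA receptor subunit (0.94), *Tmem170b* (0.94) and *Wdr26* (0.93), and for *Neat1* *Cdc14a*, *Tm9sf1* and *Flnc* (0.94, 0.93 and 0.93). For *Rian* and *Mirg* the highest r were 0.90 (*Rundc3a*) and 0.83 (*Trmt1*). To the mean standardized profile of the 7, the 10 nearest genes over 16 mice were *Sycp2*, *Luc7l3*, *Sfrs18*, *A230073K19Rik*, *Ftx*, *Ttc14*, *Luc7l2*, *D930016D06Rik*, *Chuk* and *Zc3h7a*, with r from 0.97 to 0.99. *Luc7l2* and *Luc7l3* encode U1 snRNP-associated splicing factors, and *Ftx* is a noncoding RNA of the X-inactivation centre.

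Messengers of the proteins that build the bodies these RNAs belong to differed little between genotypes. Of 15 paraspeckle proteins, 2 had an unadjusted p under 0.05, both higher in congenic mice, beside 10% of all genes, and the median log2 difference was -0.00 beside 0.01 over all genes. *Taf15*, an RNA-binding protein, was at a log2 difference of 0.15 (SE 0.07), with all 8 congenic mice above the B6 median, and at 0.09 without the 2 libraries. The 3 most abundant others had log2 differences of -0.05 (*Matr3*), -0.02 (*Hnrnpk*) and 0.02 (*Tardbp*). Of 22 nuclear speckle proteins only the splicing factor *Srsf2* had an unadjusted p under 0.05, with a log2 difference of 0.15 (SE 0.07), and 0.05 without the 2 libraries. The list's median was 0.07, with 18 of 22 higher, beside 8560 of the 15589 genes tested. *Srrm2* and *Son*, the large scaffold proteins of speckles, had 0.08 (SE 0.18) and -0.04 (SE 0.07). *Srrm2* was low in both libraries that stood apart, with a deviation from the other mice of the genotype of -1.12 in B6 mouse 8 and -1.44 in congenic mouse 1 on the log2 scale.

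Genes known for messengers with retained introns were mostly higher in congenic mice, by small amounts. Their counts are exon reads of all forms and do not measure the intron-retaining or nuclear form. Of 20 tested, 19 had a positive difference, beside 8560 of the 15589 genes tested, with a median of 0.08. An unadjusted p under 0.05 was found for 3 of the 20, beside 10% of all genes. The 3 were *Clk2* (0.18, SE 0.07) and *Clk4* (0.20, SE 0.09), kinases of splicing factors, and *Ccnl2* (0.19, SE 0.08), a cyclin that localizes to speckles. Without the 2 libraries the median was 0.03, beside -0.00 over all genes in that fit, and 16 of 20 were positive. Of the 20, 5 then had an unadjusted p under 0.05, beside 12.8% of all genes. The abundant *Ddx5*, *Ogt* and *Luc7l2* differed by 0.04, 0.07 and 0.12. In B6 mouse 8 these messengers were low with the members: 19 of 20 had their lowest B6 value there, against 26.6% of all genes, and their median deviation from the other B6 mice was -0.54 on the log2 scale. In congenic mouse 1 their median deviation was 0.10.

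Of 20 other long noncoding RNAs tested, 5 had an unadjusted p under 0.05, beside 10% of all genes, 4 of them lower in congenic mice, and the median difference was 0.05. They were *C130071C03Rik* (-0.39, SE 0.12), *Dlx1as* (-0.33, SE 0.10), *Pvt1* (-0.17, SE 0.07) and *1700020I14Rik* (-0.43, SE 0.20), all lower, and *Dancr* (0.50, SE 0.15), which was above the B6 median in 8 of 8 congenic mice. In congenic mouse 1, *1700020I14Rik* was -2.09 from the others on the log2 scale, and without the 2 libraries its difference was -0.27. *Dancr* was -1.17 from the others in B6 mouse 8 and 0.70 in congenic mouse 1. Its difference without the 2 libraries was 0.29, and those of *C130071C03Rik*, *Dlx1as* and *Pvt1* were -0.35, -0.28 and -0.11. The abundant *2900097C17Rik*, the imprinted *Peg13* and *6330403K07Rik* differed by -0.03, -0.03 and -0.04.

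The other host genes of small nucleolar RNAs had their own pattern in the 2 libraries. All 11 tested had positive differences, as had 8560 of the 15589 genes tested, with a median of 0.18, and 2 of 11 had an unadjusted p under 0.05, beside 10% of all genes: *Dancr*, as above, and *Gas5* (0.22, SE 0.08), which hosts several box C/D small nucleolar RNAs. *Snhg8*, *Snhg12* and *Snhg6* differed by 0.18, 0.16 and 0.14. All 11 were at their highest in congenic mouse 1, against 37.3% of all genes, with a median deviation there of 0.66 on the log2 scale, whereas *Snhg11* was at its lowest. Without the 2 libraries the median difference of the list was 0.05, with 9 of 11 positive, and that of *Gas5* was 0.09.

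The neighbours of the 7 and other imprinted genes mostly differed by little. Of 10 coding neighbours of the Dlk1-Dio3 region 1 had an unadjusted p under 0.05, the sphingolipid enzyme gene *Degs2* (0.28, SE 0.10), and the list's median was 0.04. In B6 mouse 8 the list's median deviation was 0.02 and in congenic mouse 1 0.02, beside the low *Meg3* of both. Of 42 imprinted coding genes elsewhere 4 had an unadjusted p under 0.05, beside 10% of all genes: *Mest* (-0.18, SE 0.05), *Herc3* (-0.19, SE 0.06) and *Zdbf2* (-0.21, SE 0.08), lower, and *Slc22a18* (0.83, SE 0.28), higher at a mean level under 1 CPM. The abundant *Gnas*, *Ppp1r9a* and *Cd81* differed by 0.02, -0.13 and 0.14. Of 12 neighbours of *Malat1* and *Neat1* only *Slc25a45* (0.27, SE 0.10) had an unadjusted p under 0.05, and its difference was 0.14 without the 2 libraries. *Dpf2* and *Frmd8* differed by 0.09 and 0.13. Of 8 neighbours of *Miat* none had in edgeR's quasi-likelihood test, with *Asphd2*, *Sez6l* and *Tfip11* at 0.02, -0.15 and 0.02; of 8 neighbours of *Snhg11* only *Slc32a1*, the vesicular GABA transporter, had (0.10, SE 0.05). Adjusted p for all genes named from these lists was between 0.361 and 0.961 in edgeR's quasi-likelihood test, the cortical markers aside.

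**Figure D5:**
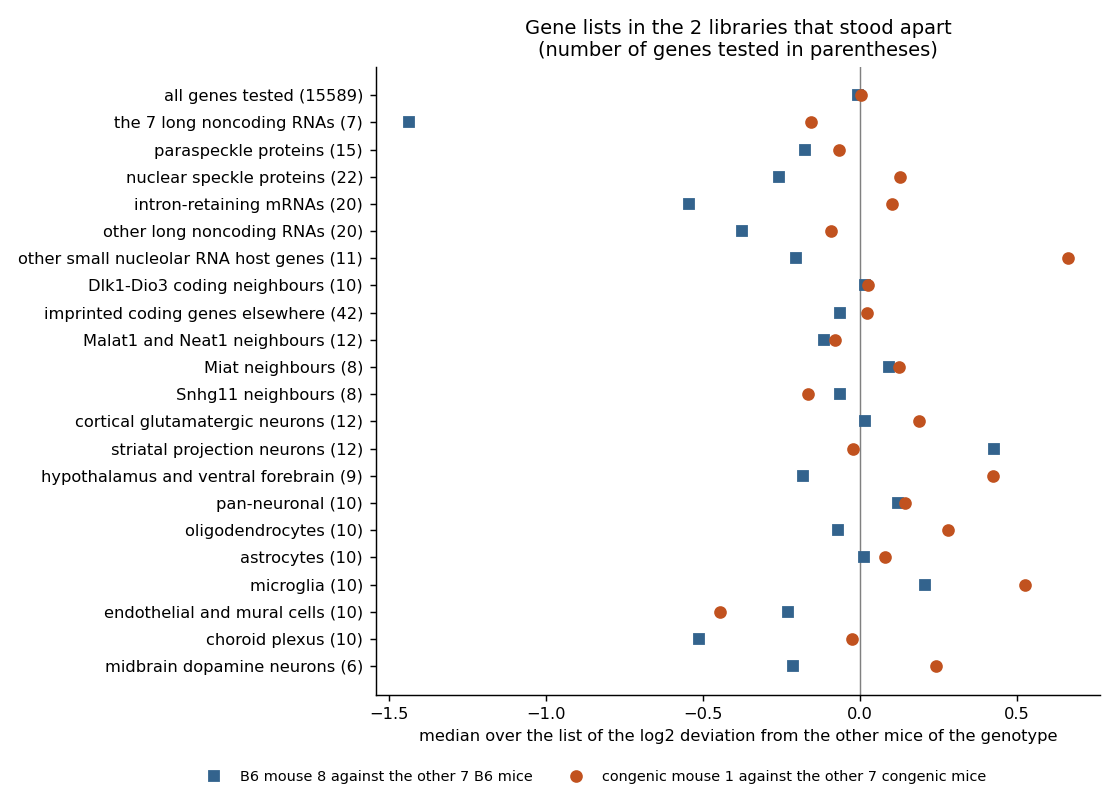
Median log2 deviation of each gene list in B6 mouse 8 (squares) and congenic mouse 1 (circles) from the other 7 mice of the same genotype, with the number of genes tested in parentheses. The 7 long noncoding RNAs sit at -1.44 in B6 mouse 8, the intron-retaining messengers at -0.54, and the host genes of small nucleolar RNAs at 0.66 in congenic mouse 1.

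Between genotypes, the other marker lists had from 0 to 3 genes at an unadjusted p under 0.05: 0 of 12 for striatal projection neurons, 0 of 10 each for oligodendrocytes, microglia and choroid plexus, 1 of 10 for astrocytes, 1 of 6 for midbrain dopamine neurons, 2 of 10 for endothelial and mural cells, 2 of 9 for hypothalamus and ventral forebrain and 3 of 10 for pan-neuronal genes, beside 10% of all genes. None of them passed an FDR of 5% in edgeR's quasi-likelihood test or in DESeq2. In direction, 10 of 10 oligodendrocyte, 10 of 10 microglial and 9 of 10 choroid plexus genes were higher in congenic mice. That is beside 8560 of the 15589 genes tested, and the median log2 differences were 0.11, 0.09 and 0.22. The striatal projection neuron list had 10 of 12 higher, and 12 of 12 without the 2 libraries. The pan-neuronal list had 4 of 10 higher. In the library of B6 mouse 8, 11 of 12 striatal projection neuron markers were at their highest among B6 mice, against 25.5% of all genes tested. Their summed level there was 9315 CPM, against 6329 to 8328 in the 14. In that library the microglial list (10 genes) summed to 796 CPM against 663 to 778. In congenic mouse 1 the microglial list summed to 906 CPM and the astrocyte list to 5817, against 6113 to 7192 in the 14. The astrocyte genes did not share a direction there: 3 of 10 were at their lowest and 4 at their highest, with a median log2 deviation of 0.08. The most abundant, *Slc1a2*, was at -0.57 from the other congenic mice, and *Aldoc* at 0.43. The oligodendrocyte sum (10 genes) was 13072 CPM in B6 mouse 8 and 15672 in congenic mouse 1, within the 10265 to 15940 of the others. The sums of the hypothalamic and ventral forebrain list (53.2 and 75.5 CPM against 45.8 to 72.9), the choroid plexus list (43.2 and 111 against 23.0 to 177) and the endothelial and mural list (305 and 314 against 264 to 405) were inside or just above the range of the other mice. The endothelial and mural sum hides opposite shifts in congenic mouse 1. There 7 of the 10 genes were at their lowest and 3 at their highest, with a median log2 deviation of -0.45. *Rgs5* was at -1.58, *Flt1* at -1.32 and *Ly6c1* at 1.74. The midbrain dopamine list summed to 143 and 173 CPM against 120 to 180, and the pan-neuronal list to 6596 and 6718 against 5726 to 6898. The part of these cells in the low *Meg3* and *Miat* of the 2 libraries was not tested.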

How the data were processed

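Striatal RNA of 8 B6 and 8 B6.D2 congenic mice was sequenced by the authors from stranded poly(A) libraries, each on 2 lanes of a flow cell. According to the authors' scripts and the labels, reads were aligned with TopHat to mm10 and counted on exons per gene with HTSeq 0.6.1p1 in union mode without regard to strand, so the deposited values are raw counts per gene, mouse and lane. The labels also name FastQC 0.10.1, TopHat2 2.0.0 and edgeR 2.14. The authors' own lists of differentially expressed genes hold fold changes and p-values and were not used. The labels and the study's methods differ in the punch diameter, the age range and the RNA kit. Home cage, which the study fitted, and sex are not in the labels and were not fitted here.

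The 31 lane files were summed per mouse (1 lane file for B6 mouse 7), after the lanes of each of 15 mice were found to differ by sampling noise (chi-square over degrees of freedom 0.997 to 1.05). Genes were filtered with filterByExpr, scaled by TMM and fitted with edgeR 4.0.16 (glmQLFit) in R 4.3.3 over all 15589 genes, with Benjamini-Hochberg adjustment over all of them. Levels are TMM-scaled CPM, log2 values used a prior count of 0.5, and RPKM used the exon lengths of the mm9 GENCODE annotation, which need not match the exons counted. At this depth the spread between mice, not counting error, sets the precision; nothing says that the mice of a genotype came from separate litters. The fit was tested on simulated data.

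The 7 members, the gene lists and the alternatives were chosen with earlier results of these data known. From each list, genes at an unadjusted p under 0.05 (at most 5) and the 3 most abundant others were to be named; for some lists fewer are given, marker genes are given by counts, and some genes are not reported here. Genes most like each member were the 3 with the highest r, and 10 for the mean profile. Mouse numbers were not used as pairs in the main fit, and the labels do not say whether same-numbered mice shared a cage or litter. Sequences and coordinates are from RefSeq on GRCm38.p6, the assembly of mm10; *Neat1* had no promoter entry. Alternatives were other scalings, filters and tools, single mice or lanes left out, lane and read-share terms, and, added after the data were seen, the fit without B6 mouse 8 and congenic mouse 1.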

Additional observations from a re-analysis of the deposited data

Results flagged for a closer look

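A value was singled out when its gap to the nearest of the other 7 mice of its genotype was above 0.526 of the range of the 8 (Dixon's criterion), which chance gives in about 1 in 20 groups. Of 20 groups, 11 values met it, all in B6 mouse 8 or congenic mouse 1. The long noncoding RNAs were chosen by values of these same mice, and the groups share the same libraries. That count can therefore not be weighed against the rate of chance, and the values are only listed. In B6 mouse 8 these were *Meg3* at 2185 CPM, *Rian* at 701 CPM, *Mirg* at 14.4 CPM, *Miat* at 139 CPM and *Snhg11* at 1088 CPM, each the lowest of 8. In congenic mouse 1 they were *Meg3* at 3592 CPM, the lowest, and *Mirg* at 38.9 CPM, the highest. The share of uniquely aligned reads on no gene was the lowest of 8 in both, at 14.01% in B6 mouse 8 and 14.06% in congenic mouse 1. Congenic mouse 1 also had the highest share of reads with several alignments, at 27.3%, and of ambiguous reads, at 1.47%. No cause was tested.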

How the results depend on the processing

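The log2 differences of the 7 were recomputed under 31 alternatives. Those of *Malat1* (-0.34 to -0.21), *Neat1* (0.30 to 0.93), *Mirg* (0.04 to 0.24) and *Snhg11* (0.07 to 0.30) kept their sign in all, and those of *Meg3* (-0.05 among lanes 5 and 6), *Rian* (-0.00 without the 2 libraries) and *Miat* (0.07 among lanes 7 and 8) changed it in 1 each. Of all genes, 1559 had an unadjusted p under 0.05; this was 500 in the lane 5 and 6 mice and 1407 in the lane 7 and 8 mice, with 4 mice a genotype in each, and 2439 with the share of reads on no gene as a covariate. Genes at an FDR of 5% numbered 1 and became 31 with DESeq2, 20 with the likelihood ratio test, 2 with a lane-pair term, 0 within either lane pair, 4 and 3 with the share on no gene or with several alignments as a covariate, and 7 without the 2 libraries; leaving out single mice gave 1 to 4, with 4 without congenic mouse 1 and 3 without congenic mouse 6. With mouse number as a replicate block 1377 genes had an unadjusted p under 0.05 and 0 passed the FDR. Same-numbered deviations correlated above 0.1 in 3 of 8 numbers (-0.12 to 0.36). That cannot show whether same-numbered mice shared a cage or litter.

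The median correlation over the 21 pairs, 0.65, was 0.35 with Spearman's rho, 0.15 without the 2 farthest mice or the 2 libraries, -0.16 within lanes 5 and 6 and 0.85 within lanes 7 and 8. The difference in reads on no gene, 0.0179 percentage points, was -0.797 within lanes 5 and 6, -0.167 as a share of all reads, and -0.628 to 0.659 with single mice left out, the ends being without B6 mouse 8 and without congenic mouse 1. The difference in reads with several alignments, 1.21 points, was 0.394 to 1.38 with single mice left out, at 0.394 without congenic mouse 1; without B6 mouse 2 it was 1.36 (exact permutation p = 0.018). The causes were not tested. Depth limits mainly the microRNA rows, of which all but a few have under 100 reads over 16 mice. The exon lengths are of another build, and stranded counts were not available to separate overlapping genes.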
